A study of Mus musculus with 2 samples.

Results

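The Cyp4 genes encode cytochrome P450 enzymes that add a hydroxyl group to the far end of a fatty acid. Described here are the probesets of 9 such genes (Cyp4a10, Cyp4a14, Cyp4a31, Cyp4b1, Cyp4f13, Cyp4f14, Cyp4f15, Cyp4f16 and Cyp4v3) of the 19324 genes that the array annotation names. The genes were chosen by name from subfamilies Cyp4a, Cyp4b, Cyp4f and Cyp4v with their signals on both diets already known. Their diet ratios are therefore values that selected the members, and they are given as a description with no test. The 9 genes had 13 probesets, of which 2 each name a pair of genes.

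Small intestinal RNA came from male mice of the inbred strain C57BL/6J, 4 months old, after 4 weeks of feeding. Both diets held 20% fat by weight. In the EPA&DHA diet, 44% of the lipid was an n-3 PUFA concentrate with 6% EPA and 51% DHA, and the rest was flaxseed oil. In the control diet all of the fat was flaxseed oil, whose main n-3 fatty acid is ALA. Each diet was given to 12 mice, and RNA was pooled from 11 EPA&DHA mice and from 10 control mice, with 1 Affymetrix MOE430_2 array per pool. Differences between mice were thus not measured on the arrays, and no p-value is given. From these same arrays the paper reported Cyp4a10 as higher on EPA&DHA. By qRT-PCR in individual mice, the paper measured other genes but no Cyp4 gene. The labels describe whole small intestine and the methods describe scrapings of it. In pooled tissue RNA, more cells of a type and more RNA per cell cannot be told apart.

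Omega-hydroxylation is the first step of a route that turns a fatty acid into a dicarboxylic acid. Alcohol and aldehyde dehydrogenases complete the oxidation, and peroxisomes then shorten the product. The Cyp4a enzymes act on medium and long chain fatty acids, and their genes are textbook targets of PPARα, a nuclear receptor that binds fatty acids. Several Cyp4f enzymes instead inactivate leukotriene B4 and other eicosanoids, which are signalling lipids made from polyunsaturated fatty acids.

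Promoter sequences in RefSeq (GRCm38.p6) were matched for 6 of the 9 genes (Cyp4b1, Cyp4f13, Cyp4f14, Cyp4f15, Cyp4f16 and Cyp4v3) and not for Cyp4a10, Cyp4a14 and Cyp4a31. The 110 bases just before the listed start are shown for Cyp4b1 and for all matched Cyp4f genes, because these subfamilies had different ratios. Capitals mark the CCAAT box, here read as ATTGG.
Cyp4b1 (chr4:115647722-115647831, minus strand): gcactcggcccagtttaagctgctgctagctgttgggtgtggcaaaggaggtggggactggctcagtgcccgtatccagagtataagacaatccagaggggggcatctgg
Cyp4f13 (chr17:32947362-32947471, minus strand): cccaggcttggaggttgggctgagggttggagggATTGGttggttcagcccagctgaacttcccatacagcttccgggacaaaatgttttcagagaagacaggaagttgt
Cyp4f14 (chr17:32917357-32917466, minus strand): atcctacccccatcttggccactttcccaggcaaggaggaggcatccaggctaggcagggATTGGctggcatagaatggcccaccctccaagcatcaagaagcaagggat
Cyp4f15 (chr17:32685549-32685658, plus strand): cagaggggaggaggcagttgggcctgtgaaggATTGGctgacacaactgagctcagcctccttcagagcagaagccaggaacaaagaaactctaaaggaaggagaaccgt
Cyp4f16 (chr17:32536447-32536556, plus strand): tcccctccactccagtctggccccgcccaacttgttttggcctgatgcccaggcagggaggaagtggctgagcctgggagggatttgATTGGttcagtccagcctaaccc
The searched promoter ran from 250 bases before to 50 bases after the start, and both strands were read. ATTGG or its reverse complement CCAAT was present in 4 of the 6 promoters, those of the Cyp4f genes, and in 37.4% of all 32851 promoters of this length. It began 76 bases before the start in Cyp4f13, 50 in Cyp4f14, 78 in Cyp4f15 and 23 in Cyp4f16. The nuclear receptor half-site AGGTCA was in 0 of the 6 promoters and in 16.3% of all. A direct repeat of this half-site with any 1 base between its copies, which contains the half-site itself, was in 0 of the 6 and in 0.0396% of all. The TATA box letters TATAAA were in 0 of the 6 and in 13.6% of all. A match is a description of these letters only, and so is the lack of one.

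Signals are MAS 5.0 values scaled to the same trimmed mean of 500 on both arrays, and the ratio is EPA&DHA over control. The 24320 brightest probesets were kept, down to a mean signal of 50.83. Of the 13 Cyp4 probesets 10 were kept. Of these, 2 of 10 had at least 2 times the control signal on EPA&DHA, against 2.29% of all kept probesets. None of the Cyp4 probesets was at least 2-fold lower (0 of 10, against 2.57% of all). At 1.5-fold, 3 of 10 were higher, against 8.06% of all, and 0 of 10 were lower, against 8.89% of all. Since the members were selected on these ratios, nothing is read from those shares. The median log2 ratio of the 10 was −0.04, close to the −0.04 of all kept probesets, and 4 were above 0 and 6 below, 3 of the 6 from Cyp4f16 alone, against 45.6% of all kept probesets above 0. The sign of this median turned with the choice of probesets: it was 0.07 with 1 mean per gene, 0.17 without probesets open to cross-hybridization and 0.35 with no filter. The direction among all 2-fold calls depended on the scaling: 556 were higher and 624 lower (47.1% higher), whereas quantile normalization gave 685 and 482 (58.7% higher).

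**Figure D1:**
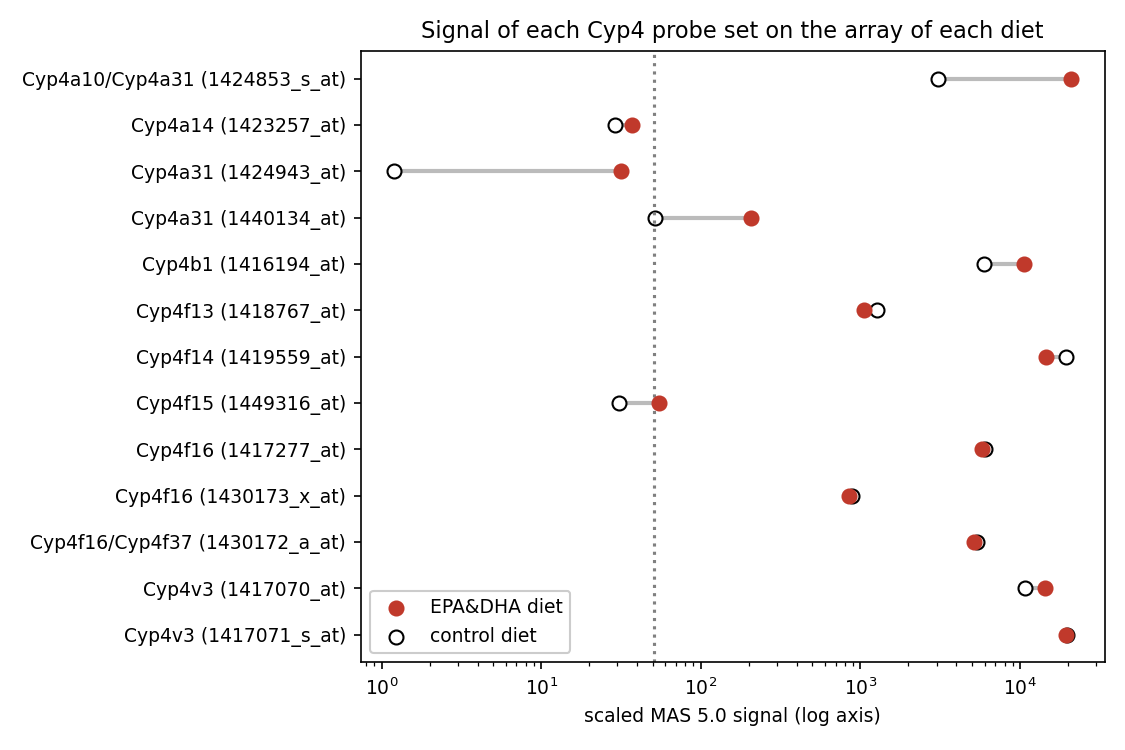
Scaled signal of all 13 Cyp4 probesets (x axis, log scale) on the EPA&DHA array (filled red) and on the control array (open), 1 row per probeset. The dotted line is the lowest mean signal kept, 50.83, and the widest gap between bright signals is that of the Cyp4a10/Cyp4a31 probeset, with 20845 on EPA&DHA and 3055 on control.

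Cyp4a10 is the best known PPARα-responsive omega-hydroxylase of mouse liver and kidney, and Cyp4a31 is its close relative and neighbour. They share the probeset 1424853_s_at, which is of a type open to cross-hybridization, and Cyp4a10 had none of its own. This probeset had a signal of 20845 on EPA&DHA and 3055 on control, a ratio of 6.82 (log2 2.77). The local SD, which is the robust SD of the log2 ratios of the 500 kept probesets nearest in signal, was 0.23 there. It measures spread among probesets and not among mice, and the ratio was 12.0 local SDs above 0. Its rank was 12 of 24320 kept probesets, counted from the highest ratio. Among the 9205 probesets with a signal of at least 500 on both arrays, 0 had a higher ratio and 79 were at least 2-fold higher. The paper had reported higher Cyp4a10 from these same arrays and took it as a sign of increased omega-oxidation of fatty acids. Its fold change was smaller than the 6.82 found here, and its main text names no probeset for it. The ratio here is thus a second reading of the same arrays and not separate evidence.

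Cyp4a31 also had probesets that name it alone. On 1440134_at the signal was 206.5 on EPA&DHA and 51.7 on control, a ratio of 3.99 (log2 2.00, local SD 0.52). Of the kept probesets of the 9 genes, this was the nearest to the filter, with a mean signal of 103. With 50 added to each signal its ratio was 2.52. On 1424943_at the signals were 31.7 on EPA&DHA and 1.20 on control. That probeset was under the filter and its log2 ratio of 4.72 had a local SD of 2.14, so its size is poorly determined. All 3 probesets of Cyp4a31 were higher on EPA&DHA, and only the shared one was bright on both arrays. How the shared signal divides between Cyp4a10 and Cyp4a31, or what part of it came from other transcripts, was not measured.

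Cyp4a14, a second PPARα-responsive Cyp4a gene of mouse liver, was dim in both pools. Its probeset 1423257_at had a signal of 37.2 on EPA&DHA and 29.1 on control, under the filter, with a log2 ratio of 0.35 and a local SD of 0.92. A ratio as small as this is well inside the spread of probesets of that brightness. Of the 4 Cyp4a probesets, 1 thus had a signal of at least 500 on both arrays.

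**Figure D2:**
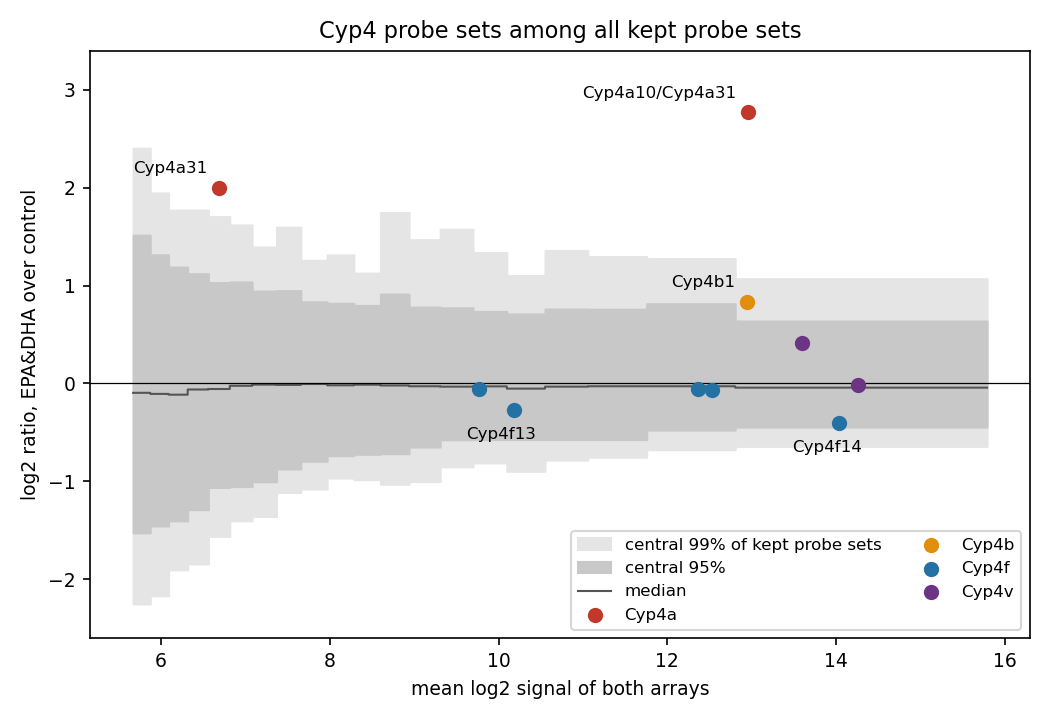
Log2 ratio of EPA&DHA over control (y axis) against the mean log2 signal of both arrays (x axis) for the 10 kept Cyp4 probesets, coloured by subfamily. Shaded bands hold the central 95% and 99% of all 24320 kept probesets of like signal and the thin line is their median. The Cyp4a10/Cyp4a31 probeset (log2 2.77) and the kept Cyp4a31 probeset (log2 2.00) lie above the wider band, and Cyp4b1 (log2 0.84) lies above the narrower band only.

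Cyp4b1 hydroxylates short and medium chain fatty acids and is known in mice and rabbits for activating protoxins such as ipomeanol. Its only probeset, 1416194_at, had a signal of 10562 on EPA&DHA and 5917 on control, a 1.79-fold higher value (log2 0.84, local SD 0.23). This was 3.58 local SDs above 0, and 3.82% of kept probesets had a higher ratio. Among the 9205 probesets with at least 500 on both arrays its rank was 143, and 3.59% of those were at least 1.5-fold higher. Cyp4b1 was thus bright on both arrays with a ratio far under that of Cyp4a10/Cyp4a31.

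The 4 Cyp4f genes chosen gave no ratio past 1.5-fold on any kept probeset, and all 5 of their kept probesets, 3 of them of Cyp4f16, were below 0. Cyp4f14, a leukotriene B4 and vitamin E omega-hydroxylase in mice, had a signal of 14654 on EPA&DHA and 19346 on control. It was 1.32-fold lower (log2 −0.40, local SD 0.20), which is 2.03 local SDs from 0, and 3994th from the lowest ratio of all kept probesets. Cyp4f13, a neighbouring gene of the same subfamily, had a signal of 1055 on EPA&DHA and 1273 on control. That was 1.21-fold lower (log2 −0.27, local SD 0.27), within 1 local SD of 0. These genes were the lowest in ratio of the Cyp4 genes kept.

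Cyp4f16, a further gene of this subfamily, was read by 3 kept probesets, 1 of them shared with Cyp4f37. On 1417277_at the signal was 5798 on EPA&DHA and 6078 on control (log2 −0.07). On 1430173_x_at it was 852 on EPA&DHA and 888 on control (log2 −0.06). On the shared 1430172_a_at it was 5157 on EPA&DHA and 5358 on control (log2 −0.06 again). The 3 log2 ratios spanned 0.013, and each lay within 0.28 local SDs of 0. For comparison, in 5328 genes that several kept probesets read, the median gap in log2 ratio between the brightest pair was 0.27.

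Cyp4f15 was the Cyp4f member just outside the filter, with a mean signal of 41.2. Its signal was 55.1 on EPA&DHA and 30.7 on control, a log2 ratio of 0.84 with a local SD of 0.93. The ratio is as large as that of Cyp4b1, but at this brightness it is smaller than the local SD. It was the only Cyp4f probeset of these genes above 0.

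Cyp4v3 is the mouse counterpart of human CYP4V2, a fatty acid omega-hydroxylase that is mutated in Bietti crystalline dystrophy of the eye. Its probesets differed. On 1417070_at the signal was 14349 on EPA&DHA and 10793 on control (log2 0.41, 1.33-fold, local SD 0.23). On 1417071_s_at it was 19456 on EPA&DHA and 19709 on control (log2 −0.02, local SD 0.19). The sign of this second value was not stable. It was kept in 4 of 6 other scalings and offsets, over which the log2 ratio ran between −0.02 and 0.03. It turned positive with median centring (0.018) and loess (0.026), and stayed negative with quantile normalization (−0.002). The other settings could not turn it, because equal offsets keep the sign and the deposited values were already scaled. The gap of 0.43 between both probesets is above the median gap of 0.27 over those 5328 genes and below their SD of 0.53.

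**Figure D3:**
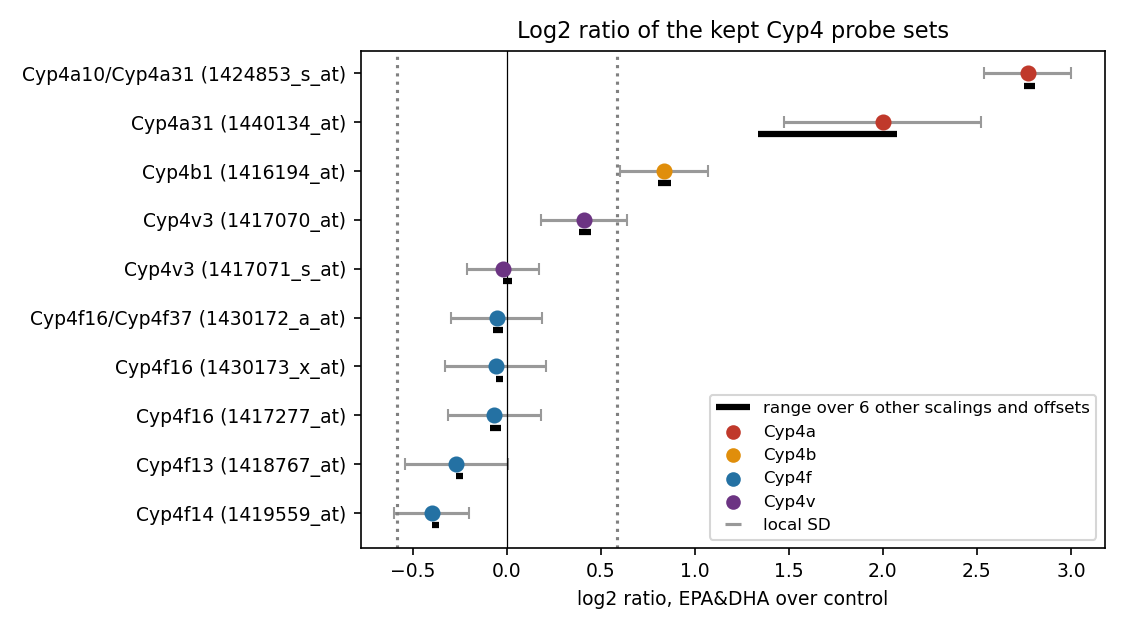
Log2 ratio of EPA&DHA over control (x axis) for the 10 kept Cyp4 probesets, coloured by subfamily, with whiskers of 1 local SD among probesets and black bars for the range over 6 other scalings and offsets. Dotted lines mark 1.5-fold either way; both Cyp4a probesets and Cyp4b1 lie above the upper line, and none lies under the lower line.

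Across the subfamilies the order of the ratios was thus Cyp4a, Cyp4b, Cyp4v and Cyp4f. The medians over kept probesets were 2.38 for Cyp4a (2 probesets), 0.84 for Cyp4b (1), 0.20 for Cyp4v (2) and −0.07 for Cyp4f (5). Cyp4v and Cyp4f overlapped, since the Cyp4v3 probeset at −0.02 is within 1 local SD of the Cyp4f16 values. The local SDs of Cyp4b1 and of the Cyp4v3 probeset 1417070_at also meet. The Cyp4a10/Cyp4a31 probeset was the highest, and the Cyp4a31 probeset at 2.00 was the nearest to it.

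The other Cyp4 genes on the array add little signal. These are 6 genes, of which Cyp4f37 was read only by the probeset shared with Cyp4f16. Cyp4f18 had a kept probeset with 75.6 on EPA&DHA and 88.2 on control (log2 −0.22, local SD 0.65). Cyp4f39 had 61.0 on EPA&DHA and 49.3 on control (log2 0.31, local SD 0.68). Cyp4a12a, Cyp4x1 and the pseudogene Cyp4f41-ps were under the filter on both arrays. Cyp4a12a had 21.0 on EPA&DHA and 2.57 on control, and Cyp4x1 had 2.88 on EPA&DHA and 17.8 on control. No signal of these 3 genes reached 50.

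The Cyp4a genes and Cyp4b1 lie in 1 run of genes on chromosome 4, and the Cyp4f members in another on chromosome 17, while Cyp4v3 is on chromosome 8. In the order of RefSeq, Cyp4a14, Cyp4a10 and Cyp4a31 precede Cyp4b1. The 5 measured genes on either side of the chromosome 4 run had a median log2 ratio of −0.06, with Stil highest at 0.43 and Dmbx1 lowest at −1.09. Dmbx1 was dim, with 35.3 on EPA&DHA and 75.3 on control. The nearest measured neighbours were Pdzk1ip1 (log2 −0.01) and Efcab14 (log2 0.02). No flanking gene was as high as Cyp4b1 or the Cyp4a probesets that were kept. Around the chromosome 17 run the 10 flanking genes had log2 ratios between −0.45 (Wiz) and 0.33 (Zfp952), with a median of 0.05. Between Cyp4f15 and Cyp4f14 lie zinc finger genes, of which Zfp799 (log2 0.78) and Zfp870 (log2 0.70) were higher than any kept Cyp4f probeset. Their signals were low, with 251.9 on EPA&DHA and 147.1 on control for Zfp799, and 94.9 and 58.4 for Zfp870.

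**Figure D4:**
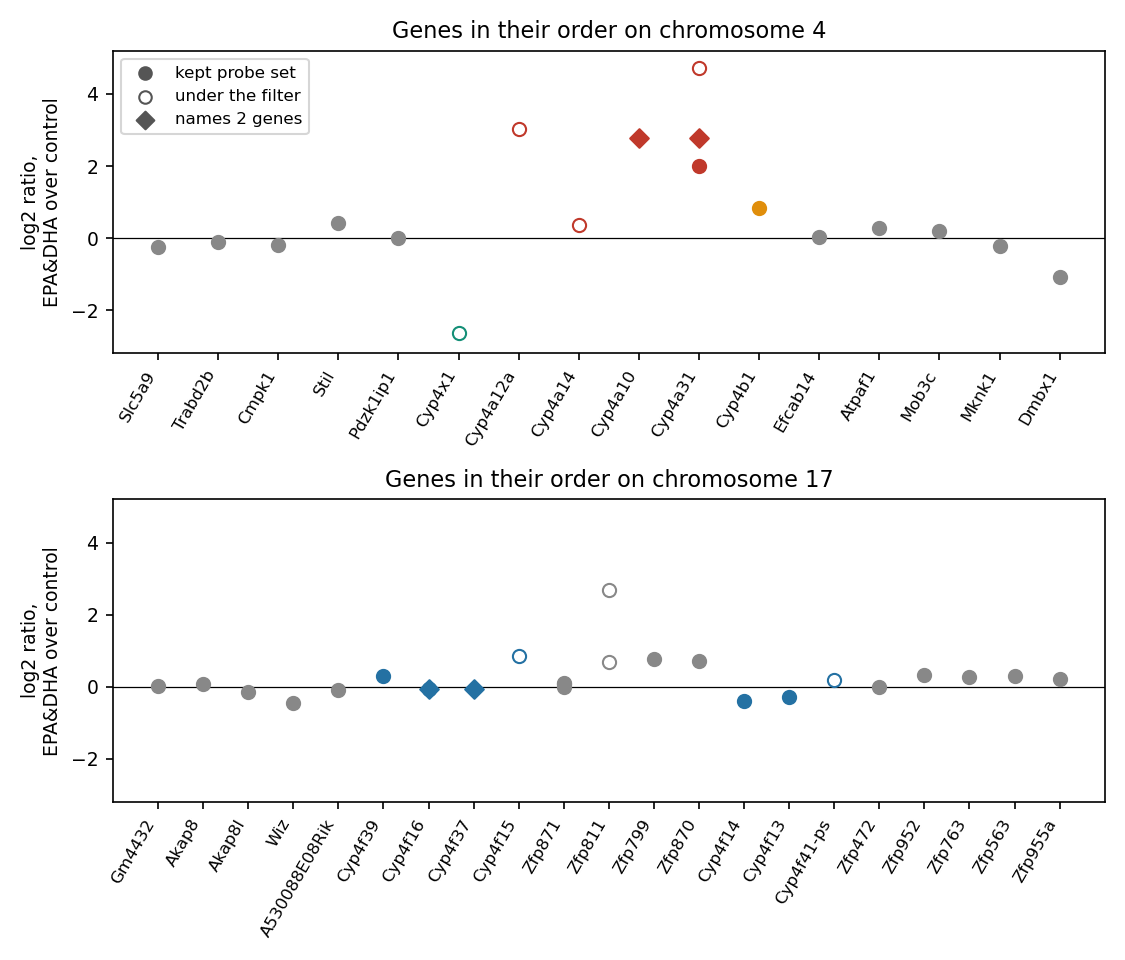
Log2 ratio of EPA&DHA over control (y axis) for genes in their chromosomal order (x axis, even spacing) around the Cyp4 runs of chromosome 4 (top) and chromosome 17 (bottom), with Cyp4 genes in colour and other genes in grey. Filled points are kept probesets, open points lie under the filter, and diamonds are probesets that name 2 genes (that of Cyp4f16 covers its own points); the highest kept points are those of Cyp4a10, Cyp4a31 and Cyp4b1.

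Genes of steps connected to the Cyp4 enzymes were described by lists, each gene by its brightest kept probeset. Over all 11707 genes with such a value, 6.19% were at least 1.5-fold higher, 7.94% at least 1.5-fold lower and 43.6% above 0. The lists were written with earlier results of these data known, so nothing is read from their counts or medians beside these shares. None of the 6 lists had a gene at least 1.5-fold lower by that probeset. Of the dehydrogenases that act on Cyp4 products, 7 of 8 were measured, 2 were at least 1.5-fold higher and 7 of 7 were above 0, with a median of 0.35. Aldh3a2, the fatty aldehyde dehydrogenase, had 8926 on EPA&DHA and 4997 on control (log2 0.84). Aldh1a1, a retinal dehydrogenase that also takes fatty aldehydes, had 23120 on EPA&DHA and 13084 on control (log2 0.82). The lowest of these was Aldh9a1 at 0.05, with another kept probeset at −0.10. Adh7 was at 0.43, with another kept probeset at 1.00. Aldh3a2 and Cyp4b1 thus had log2 ratios of 0.84 each.

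Of 4 electron donors of microsomal P450 enzymes 3 were measured, without Por, the main one. The cytochrome b5 genes and their reductase were close to 0 on the log2 scale, with Cyb5b lowest (log2 −0.12) and Cyb5a highest (log2 0.15), and 0 passed 1.5-fold. Peroxisomal genes that take up and shorten dicarboxylic acids had a median of 0.56 over 8 of 11 measured, with 3 at least 1.5-fold higher. These were the thiolase Acaa1b (22770 on EPA&DHA and 10648 on control, log2 1.10), the thioesterase Acot4 (1048 on EPA&DHA and 524 on control, log2 1.00) and the bifunctional enzyme Hsd17b4 (12812 on EPA&DHA and 7876 on control, log2 0.70). Acaa1a was lowest, at −0.26 (local SD 0.25), on a probeset with 1365 on EPA&DHA and 1630 on control. Its other kept probeset that names it alone was at 0.90, so the direction differed between them. The paper reported Acaa1a as higher on EPA&DHA by qRT-PCR in individual mice, with primers also listed for Acaa1b. All 8 genes, each by its brightest kept probeset, lay below the shared Cyp4a probeset in log2 ratio.

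Ppara, which encodes the receptor, had a signal of 3664 on EPA&DHA and 1998 on control, 1.83-fold higher (log2 0.88), and its 3 kept probesets lay between 0.88 and 0.95. By brightest probeset it was the only gene past 1.5-fold of 9 measured among the receptor and its partners. Their median was −0.06, and Ppard, a related receptor, was lowest at −0.49. The 5 kept probesets of Med1, a partner, disagreed, with log2 ratios between −0.81 and 0.59. The leukotriene B4 genes outside Cyp4f had a median of −0.19 over 5 of 6 measured, and 0 passed 1.5-fold. Alox5, which starts leukotriene synthesis, was lowest at −0.53 (local SD 0.41), with 181.3 on EPA&DHA and 262.5 on control. The receptor Ltb4r1 was highest at 0.29 (local SD 0.39), with 258.0 on EPA&DHA and 211.7 on control. Of these 5 genes 1 was above 0, against 43.6% of all genes.

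Of other PPARα targets 18 of 20 were measured, 8 were at least 1.5-fold higher and 17 were above 0, with a median of 0.53. They were Acot1 (log2 2.92), Pdk4 (1.62), Pex11a (1.31), Acot2 (1.22), Angptl4 (1.02), Acadl (0.69), Slc25a20 (0.69) and Acaa2 (0.66). The thioesterase Acot1 had 1857 on EPA&DHA and 245 on control, and it alone of these was above the Cyp4a10/Cyp4a31 probeset in ratio. The lowest was Fabp1, a fatty acid binding protein, at −0.23. Probesets of a gene could disagree. Cpt1a, which brings fatty acids into mitochondria, was at 0.39 on its brightest probeset and up to 2.07 on another. Hadhb, of mitochondrial β-oxidation, was at 0.31 and up to 1.24. By qRT-PCR in individual mice, the paper reported Cpt1a and Pdk4 as higher on EPA&DHA.

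**Figure D5:**
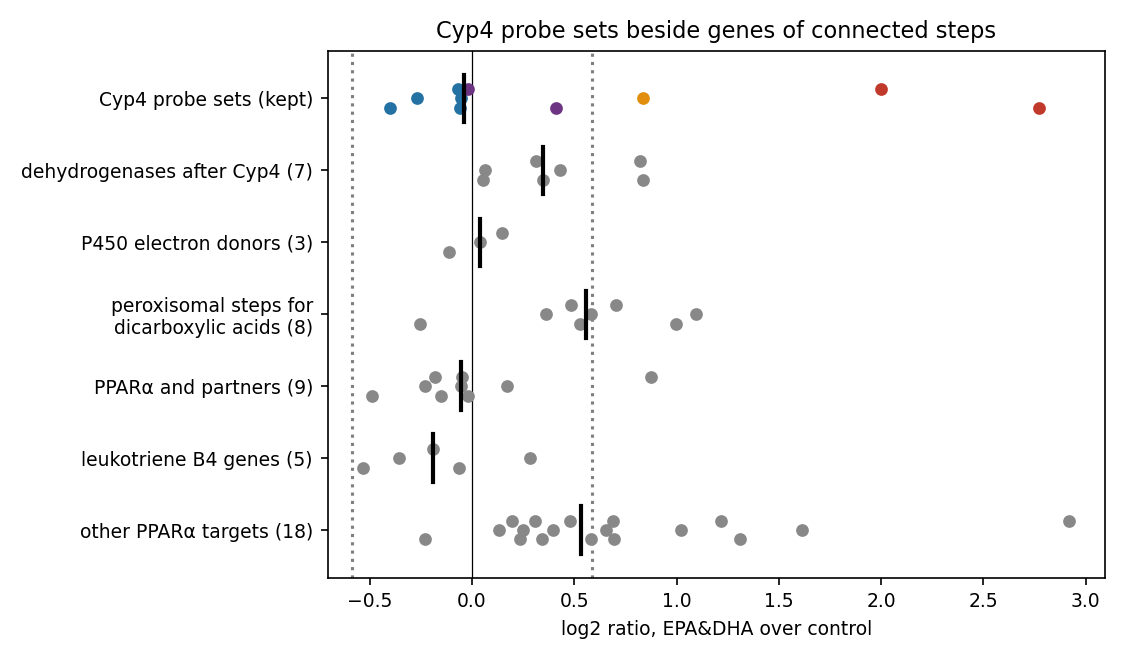
Log2 ratio of EPA&DHA over control (x axis) of the 10 kept Cyp4 probesets, coloured by subfamily, and of the measured genes of 6 lists (grey, number measured in brackets), with black bars for medians and dotted lines at 1.5-fold. The median was 0.56 for the peroxisomal steps and 0.53 for other PPARα targets, against −0.19 for the leukotriene B4 genes.

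By ratio, the genes most like the Cyp4a10/Cyp4a31 probeset were the 5 nearest in log2 ratio with a signal of at least 500 on both arrays. These were Cela3b, a pancreatic elastase, at a distance of 0.83 on the log2 scale, Akr1b8, an aldo-keto reductase, at 0.93, Rps10, a ribosomal protein, at 1.05, Psmb4, a proteasome subunit, at 1.13, and Pdk4, a kinase that restrains glucose oxidation, at 1.16. The probesets that gave these values for Cela3b, Rps10 and Psmb4 are of the type open to cross-hybridization, and so is the Cyp4a10/Cyp4a31 probeset itself. Genes under the signal limit could be nearer, such as Acot1 at 2.92, with 245 on control. Likeness here rests on 2 arrays, and the gap to the nearest of these 5 exceeded the 0.23 local SD of the Cyp4a probeset.

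Markers of other cells were read beside the Cyp4 values. Absorptive enterocyte markers, 9 of 10 measured, had a median of −0.19 and summed to 267933 on EPA&DHA and 312059 on control. Goblet cell markers had a median of −0.29 (6 of 6 measured) and Paneth cell markers of −0.16 (4 of 5 measured). Each marker was read by its brightest kept probeset, and other probesets could differ. The enterocyte marker Slc5a1 was at −0.10 and 0.74, Agr2 at −0.27 and 1.37, Clca1 at −0.36 and −0.93, and Lyz1 between −1.49 and −0.135. Exocrine pancreas markers were higher in 8 of 8 measured genes of 10 by at least 1.5-fold, with a median of 1.94, between Clps (0.70) and Cpb1 (2.70), and summed to 15383 on EPA&DHA and 5468 on control. Their part in the Cyp4a and Cyp4b1 values was not tested. Hepatocyte and kidney tubule markers, of tissues rich in Cyp4a, were dim: 1 of 7 and 1 of 5 were kept, and the summed signals were 222 on EPA&DHA and 326 on control for hepatocyte, and 222 on EPA&DHA and 263 on control for kidney. No neutrophil marker was kept (0 of 6), and smooth muscle markers had a median of −0.21. For position along the intestine, proximal markers had a median of 0.07 and distal ones of 0.08, of which Nr1h4 was highest at 0.88. Poly-A transcripts added to the RNA had a median ratio of 1.27 (24 probesets), and hybridization controls had log2 ratios between −0.24 and 0.10 (18 probesets).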

How the data were processed

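The authors pooled RNA per diet, hybridized each pool to an Affymetrix MOE430_2 array and summarized probes with MAS 5.0, for which no version is given in the sources used here. Deposited values are signal intensities that the authors had scaled to 500. Of 45101 probesets, 64 controls were set aside. Of the other 45037, 34957 named 1 gene, 920 several and 9160 none in the platform annotation, with symbols updated through Entrez IDs to RefSeq (GRCm38.p6). Both arrays were scaled to the same 2% trimmed mean, and log2 ratios were taken of EPA&DHA over control, with no offset. The brightest 54% by mean log2 signal were kept. Local SDs used the scaled median absolute deviation over 500 probesets (for dim probesets, the nearest of all).

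All probesets of the 9 genes were named; of each list, genes past 1.5-fold and both extremes were named. Members and lists were chosen with earlier results of these data known. Other Cyp4 genes are symbols starting with Cyp4, without Cyp46a1, which belongs to another family. With 1 array per diet no test was run. The number of arrays limits the precision. Alternatives were no further scaling, median centring, quantile normalization, loess (span 0.3), adding 50 or 18.3 (the 25th percentile) to each signal, other filters and other choices of probesets. Scripts were tested on simulated data. Python 3.11.15, numpy 2.4.6, pandas 2.3.3, scipy 1.17.1, statsmodels 0.14.6 and matplotlib 3.10.9 were used.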

Additional observations from a re-analysis of the deposited data

How the results depend on the processing

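Of 55 values of the Cyp4 counts and median under 11 alternatives, 49 stayed within 1.5 times the reported count or, for the median, within the median local SD of 0.24, and 6 did not. Some of these outcomes were fixed in advance. No further scaling left each value as reported, because the deposited values were already scaled. Where an alternative only removed probesets, the counts of lower probesets, which were 0, could not change. The count at least 2-fold higher was 1 in place of 2 with a stricter filter on dim probesets (of 9), with only probesets that name 1 gene (of 8), without possible cross-hybridization (of 6) and with 1 mean per gene (of 6). Without a filter the count at least 1.5-fold higher was 5 of 13 in place of 3 of 10, and the median log2 ratio was 0.35 in place of −0.04, since the 3 dim probesets then enter. The median also turned positive, within that tolerance, without possible cross-hybridization (0.17) and with 1 mean per gene (0.07). Over 6 scalings and offsets the Cyp4a10/Cyp4a31 ratio ran between 6.73-fold and 7.01-fold and that of Cyp4b1 between 1.74-fold and 1.83-fold. The Cyp4a31 probeset 1440134_at had a log2 ratio of 1.33 with 50 added to each signal, and the dim 1424943_at had 0.68 with 50 added and 1.36 with 18.3 added. Among all kept probesets, 2-fold calls split 630 higher to 549 lower after median centring (53.4% higher), 678 to 497 after loess (57.7%), 232 to 103 with 50 added (69.3%) and 372 to 303 with 18.3 added (55.1%). No paired analysis was possible because each diet had 1 array and the labels carry no replicate numbers. No array could be left out for the same reason. Signals near 50 and below limit Cyp4a14, Cyp4f15 and the single-gene Cyp4a31 probesets.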
